A study of Mus musculus with 18 samples.

Results

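The Myc and Max network is described here through 10 genes, taken as every probe whose platform gene symbol was Myc, Mycn, Mycl1, Max, Mxd1, Mxd3, Mxd4, Mxi1, Mnt or Mlx. All 10 were among the 16675 genes measured, with 14 probes in all: 7 members had 1 probe each, Myc and Mxi1 had 2 each, and Mxd1 had 3. Mycl1 is the older symbol of Mycl. NMuMG cells, an established line of mouse mammary gland epithelium, were plated in complete medium and, 45 min later, given either halofuginone (HF) or MAZ1310, each at 10 nM in acidified DMSO, for 8 hr. HF is an inhibitor of prolyl-tRNA synthetase, and MAZ1310 is an HF derivative with a tert-butyl carbamate on the piperidine nitrogen, which served as the negative control. There were 3 cultures per treatment, all of this single cell line, and RNA of each culture was hybridized to 3 technical 1-color arrays. No arrays of untreated or vehicle-treated cells were analysed here, so every difference below is HF minus MAZ1310 at 1 dose and 1 time.

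Myc is a basic helix-loop-helix leucine zipper transcription factor that binds DNA as a dimer with Max, at E-box sequences of which CACGTG is the best known, and raises transcription of genes for ribosome production, metabolism and cell division. The Mxd proteins (Mxi1 among them) and Mnt also dimerize with Max, bind the same sites and recruit Sin3 corepressors. Mlx is a Max-like protein that pairs with Mlxip (MondoA) and Mlxipl (ChREBP), factors that respond to glucose-derived metabolites, and with some of the Mxd proteins and Mnt.

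Of the 10 members, Myc alone passed the test (limma, Benjamini-Hochberg adjusted p under 0.05 over all genes), and it was higher in HF. In this comparison 3.02% of all genes passed, 1.45% higher and 1.57% lower in HF. The median log2 fold change of the members was 0.047, beside -0.0020 over all genes. The 3 HF cultures lay wholly above the 3 MAZ1310 cultures for Myc and Mnt, wholly below them for Mxd3 and Mxi1, and overlapped them for the other 6 members. Over all genes, the groups did not overlap for 21.0%, of which 11.2% were higher and 9.85% lower in HF. An unadjusted p under 0.05 was reached by 3 members, Myc, Mxd3 and Mxi1, and by 16.5% of all genes. The RNA came from whole cultures, in which fewer cells with a transcript and less of it per cell cannot be told apart.

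**Figure D1:**
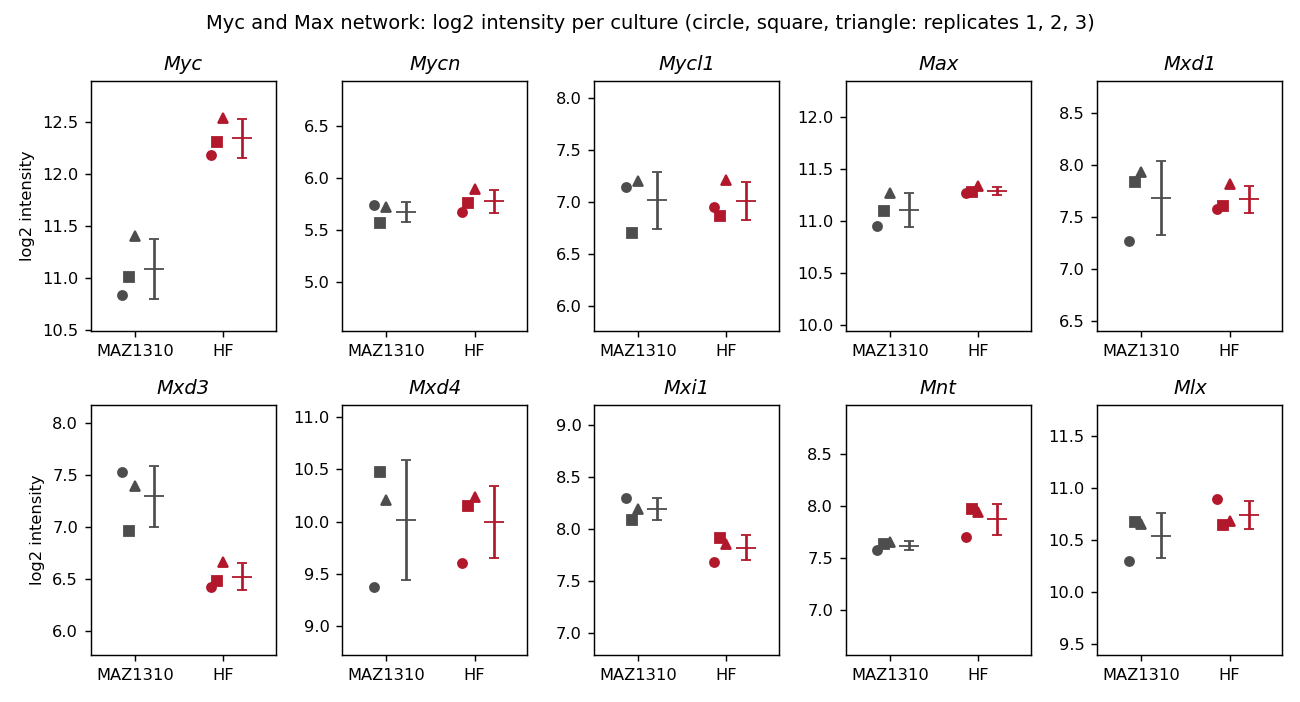
Log2 intensity of each member in every culture (vertical axis, spanning the same range of log2 units in each panel) by treatment (horizontal axis), with MAZ1310 in grey, HF in red, symbols for replicate numbers 1 to 3, and a bar for the mean and SD of 3 cultures. The groups are apart for Myc (higher in HF), Mnt (higher), Mxd3 (lower) and Mxi1 (lower).

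Intervals below are confidence intervals (CI) of limma's fit. The number of cultures limited the precision of all values, and the standard error (SE) of a gene's log2 fold change had a median of 0.18 over all genes. The deposited intensities ran from 5.19 to 16.0 on the log2 scale. Outside remarks on bright or dim genes, a probe's level is set here only against the same probe in other cultures. Of 8 epithelial markers measured, 0 passed the test, and the keratins Krt8 (15.94 in MAZ1310, 15.99 in HF) and Krt18 (15.93 and 16.00) lay near the top of the scale. The adhesion molecule Epcam, listed under its older symbol Tacstd1, had 5.94 and 6.07, within the 25% of genes with the lowest mean intensity. The summed log2 intensity of the epithelial markers was 89.5 to 90.6 in MAZ1310 and 90.8 to 91.9 in HF cultures, so the groups did not overlap. That of 6 fibroblast markers was 37.4 to 38.4 and 37.3 to 38.2, that of 6 blood and endothelial markers 43.4 to 46.4 and 42.9 to 45.2, and that of 6 adipocyte markers 39.0 to 39.4 and 38.3 to 39.5, in MAZ1310 and HF in that order, with 0 genes called in each list. The largest differences in these 4 lists, none of which passed, were those of the keratin Krt19 (0.68, adjusted p = 0.297), the collagen gene Col1a2 (-0.36, adjusted p = 0.829), the macrophage gene Cd68 (-0.45, groups apart, adjusted p = 0.207) and the lipid droplet gene Plin (-0.33, adjusted p = 0.456). Of these markers, 3 of the fibroblast, 2 of the blood and endothelial and 4 of the adipocyte list lay in the lowest 25%. The part of the higher epithelial sum in the members' values was not tested.

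Since dimers of this network bind CACGTG, the promoter windows of the members were searched for it, and the 4 sites found are shown so that they can be compared. RefSeq windows of the mouse assembly GRCm38.p6, from 250 bases before to 50 after the start of a transcript, were at hand for 9 members (11 windows, of which Mxi1 had 3). Myc itself was not among them. CACGTG, which reads the same on both strands, occurred in the windows of Max, Mxd4, Mnt and Mlx and in none of those of Mycn, Mycl1, Mxd1, Mxd3 and Mxi1. Over all 32851 windows, 7.15% held it. Each site is printed below with 20 bases on either side, on the strand of the gene and with CACGTG in capitals. Coordinates are those of the printed stretch of 46 bases, and positions are those of the first base of CACGTG, counted from the start. CACGTG began at -3 for Max (chr12:76962226-76962271, minus strand) and at -219 for Mxd4 (chr5:34187904-34187949, minus strand). It began at -123 for Mnt (chr11:74830781-74830826, plus strand) and at -40 for Mlx (chr11:101087230-101087275, plus strand).
Max: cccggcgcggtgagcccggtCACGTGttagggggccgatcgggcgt
Mxd4: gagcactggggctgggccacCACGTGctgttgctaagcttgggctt
Mnt: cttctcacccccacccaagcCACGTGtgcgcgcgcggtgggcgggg
Mlx: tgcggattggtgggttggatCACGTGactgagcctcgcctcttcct
None of the 9 members with windows passed the test, whether or not a window held CACGTG. The calls therefore cannot relate the site to the response, and such a link was not tested. TGATGNAA, the core of amino acid response elements, was sought on both strands in the same way. It occurred in 0 of the members' 11 windows and in 3.97% of all windows. With so few windows, and none of Myc, the 0 cannot show that the members lack such sites.

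Myc, which drives growth and proliferation, had log2 intensities of 10.84, 11.01 and 11.41 in the 3 MAZ1310 cultures and 12.18, 12.30 and 12.54 in the 3 HF cultures. The lowest HF culture was thus above the highest MAZ1310 culture. The log2 fold change was 1.25 (SE 0.19, 95% CI 0.82 to 1.69, limma adjusted p = 0.0226), or 2.38-fold, and by its p-value Myc stood at rank 170 among all genes. The study had itself singled out Myc on these arrays, so its direction is not independent evidence. With 1 culture left out the log2 fold change stayed between 1.13 and 1.41, but the call was lost without HF 1 (adjusted p = 0.0610), HF 2 (0.0906), HF 3 (0.0692) or MAZ1310 2 (0.0935). Over all genes these omissions cut the calls from 504 to 113, 48, 129 and 64, in that order. With any 1 culture left out at most 339 genes were called, which bears on each such loss below.

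Both probes of Myc were above every MAZ1310 array on every HF array, by different amounts. Probe mMC023043 had 12.54, 12.88 and 13.32 in MAZ1310 and 14.37, 14.64 and 14.79 in HF cultures, a log2 fold change of 1.69 (SE 0.23, 95% CI 1.16 to 2.22, limma adjusted p = 0.0211). Probe mMC018043 had 9.15, 9.14 and 9.50 in MAZ1310 and 9.98, 9.97 and 10.29 in HF cultures, a difference of 0.82 (SE 0.17, 95% CI 0.42 to 1.21) with an adjusted p of 0.0583. For both probes all 9 HF arrays lay above all 9 MAZ1310 arrays: 14.18 to 15.07 against 12.33 to 13.38 for mMC023043 and 9.68 to 10.58 against 9.03 to 9.65 for mMC018043. The log2 fold change of mMC023043 exceeded that of mMC018043 by 0.87 (SE 0.15). This difference separated the 2 groups of cultures without overlap, with an exact permutation p of 0.1, the smallest that 3 against 3 cultures allow (0.17 adjusted over the 5 probe pairs compared within members). Where the probes lie in the transcript is not given in the sources used here. Of the members' 14 probes, mMC023043 alone passed the test, beside 2.23% of all probes (1.15% higher and 1.09% lower in HF), and 6 had groups that did not overlap, beside 20.2% of all probes. Without HF 1, HF 2, HF 3 or MAZ1310 2 its adjusted p was 0.0580, 0.0944, 0.0656 or 0.0949, so the call was lost in each case.

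**Figure D2:**
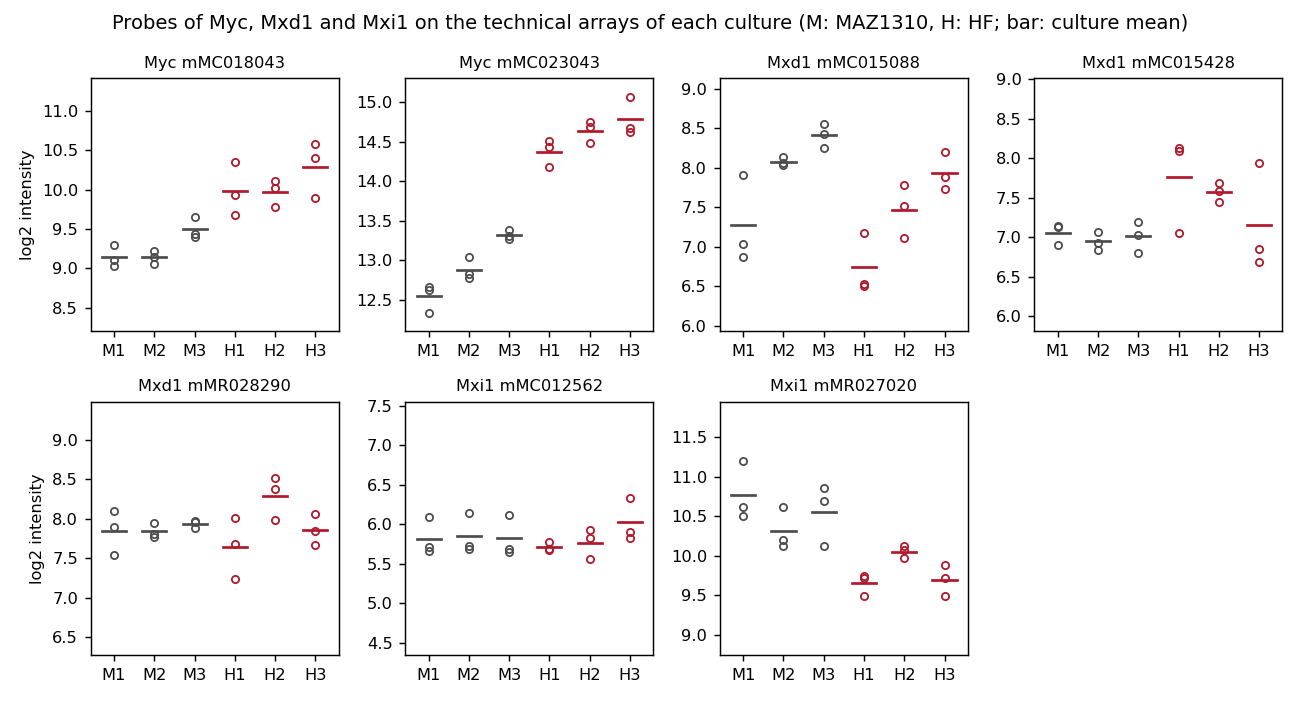
Log2 intensity (vertical axis) of each probe of Myc, Mxd1 and Mxi1 on the 3 technical arrays (open circles) of each culture (horizontal axis; M1 to M3 MAZ1310, H1 to H3 HF), with a bar at the culture mean. All 9 HF arrays lie above all 9 MAZ1310 arrays for both Myc probes, and the arrays of the treatments overlap for each probe of Mxd1 and for Mxi1 probe mMC012562.

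The Myc paralogs did not pass the test. Mycn, best known from neural tissue and neuroblastoma, had 5.74, 5.57 and 5.72 in MAZ1310 and 5.67, 5.76 and 5.89 in HF cultures, with a log2 fold change of 0.10 (95% CI -0.21 to 0.41, adjusted p = 0.839). It was the only member within the lowest 25% of genes by mean intensity over the 6 cultures. Mycl1, amplified in some lung cancers, had 7.14, 6.71 and 7.21 in MAZ1310 and 6.95, 6.87 and 7.22 in HF cultures, with a log2 fold change of -0.0058 (-0.43 to 0.42, adjusted p = 0.998). The groups overlapped for both genes.

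Max, the shared partner without which Myc, Mxd and Mnt proteins do not bind DNA efficiently, had 10.95, 11.10 and 11.27 in MAZ1310 and 11.27, 11.28 and 11.34 in HF cultures. The HF cultures lay at the upper end of the MAZ1310 range and overlapped it. The log2 fold change of 0.19 (SE 0.13, 95% CI -0.13 to 0.50, adjusted p = 0.625) leaves room for a rise of up to 0.50 and for a fall of 0.13. The log2 fold change of Myc exceeded that of Max by 1.07 (SE 0.11). The same difference was taken between Myc and each of the other members. It ran from 1.00 (SE 0.17) for Mnt to 2.02 (0.24) for Mxd3, and in all 9 cases the HF cultures lay wholly above the MAZ1310 cultures. Each exact permutation p was 0.1 (two-sided), the smallest possible with 3 against 3, and 0.1 after adjustment over the 9. All 9 differences share the values of Myc, whose own groups were apart, so they are not 9 separate results.

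Among the Mxd repressors, Mxd3 had the lowest log2 fold change and did not pass the test. It is expressed mainly in proliferating cells, unlike Mxd1 and Mxd4, which mark differentiating cells. Mxd3 had 7.52, 6.96 and 7.39 in MAZ1310 and 6.42, 6.48 and 6.66 in HF cultures. All HF cultures were below all MAZ1310 cultures, as were 8 of 9 single HF arrays. The log2 fold change was -0.77 (SE 0.18, 95% CI -1.19 to -0.35, limma adjusted p = 0.0726). A fit to all 18 arrays with the culture as a random block gave the same log2 fold change with an adjusted p of 0.000956. That fit takes 1 correlation between technical arrays for all genes. The technical SD of Mxd3 was 0.13, beside a median of 0.26 over all genes, so that correlation may not hold for it. The smaller p may thus count technical arrays as more than they are. The promoter window of Mxd3 (chr13:55329682-55329981, minus strand, GRCm38.p6, RefSeq) is shown as that of the member with the lowest log2 fold change, and it holds no CACGTG.
Mxd3: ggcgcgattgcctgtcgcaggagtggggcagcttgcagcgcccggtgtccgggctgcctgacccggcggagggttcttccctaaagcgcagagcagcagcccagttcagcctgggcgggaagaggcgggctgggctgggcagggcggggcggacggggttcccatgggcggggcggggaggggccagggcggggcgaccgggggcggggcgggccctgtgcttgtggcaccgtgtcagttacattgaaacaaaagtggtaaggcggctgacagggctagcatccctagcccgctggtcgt

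Mxi1, a Max-binding repressor also called Mxd2, had 8.30, 8.08 and 8.19 in MAZ1310 and 7.69, 7.91 and 7.86 in HF cultures at the gene level. The groups did not overlap, and the log2 fold change was -0.37 (SE 0.13, 95% CI -0.69 to -0.058, limma adjusted p = 0.217). This value is the median of 2 probes. Probe mMR027020 had 10.78, 10.31 and 10.56 in MAZ1310 and 9.66, 10.05 and 9.70 in HF cultures, a log2 fold change of -0.75 (SE 0.18, 95% CI -1.18 to -0.32, adjusted p = 0.0895), and 8 of 9 HF arrays were below every MAZ1310 array. Probe mMC012562 had 5.82, 5.85 and 5.82 in MAZ1310 and 5.72, 5.77 and 6.02 in HF cultures, with a log2 fold change of 0.0039 (-0.33 to 0.33, adjusted p = 0.997). Its values lay near the bottom of the scale, where a change may not be measurable, and it was left out by a filter on the lowest 25% of probes. The gene value therefore rests on a dim probe and on mMR027020. The gene also has more than 1 annotated start. The first and the last of its 3 RefSeq windows (chr19:53310256-53310555 and chr19:53329445-53329744, both plus strand, GRCm38.p6) are printed to show that they are unlike each other, and neither holds CACGTG. Which start either probe reports is not given in the sources used here.
Mxi1 first window: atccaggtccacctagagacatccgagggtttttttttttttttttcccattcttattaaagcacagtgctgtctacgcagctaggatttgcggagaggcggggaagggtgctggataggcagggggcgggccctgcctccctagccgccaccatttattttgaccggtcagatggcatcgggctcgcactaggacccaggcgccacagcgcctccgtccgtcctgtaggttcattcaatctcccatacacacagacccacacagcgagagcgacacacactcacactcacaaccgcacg
Mxi1 last window: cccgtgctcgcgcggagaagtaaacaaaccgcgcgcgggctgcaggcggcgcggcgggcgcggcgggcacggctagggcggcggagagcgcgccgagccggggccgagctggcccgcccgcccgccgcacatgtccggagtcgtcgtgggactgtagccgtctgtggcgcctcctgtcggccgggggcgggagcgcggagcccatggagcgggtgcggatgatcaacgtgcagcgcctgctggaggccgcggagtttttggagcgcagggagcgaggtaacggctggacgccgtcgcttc

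Mxd1, the Mad1 repressor of differentiating cells, had 7.27, 7.84 and 7.93 in MAZ1310 and 7.58, 7.61 and 7.82 in HF cultures at the gene level. The HF values fell within the MAZ1310 range, with a log2 fold change of -0.015 (SE 0.20, 95% CI -0.48 to 0.45, adjusted p = 0.990). Its 3 probes had log2 fold changes on both sides of 0, and the gene value lay closest to that of probe mMR028290. Probe mMC015428 had 7.06, 6.95 and 7.01 in MAZ1310 and 7.76, 7.57 and 7.16 in HF cultures, without overlap. Its log2 fold change was 0.49 (SE 0.18, 95% CI 0.065 to 0.92, limma adjusted p = 0.245). Probe mMC015088 had 7.27, 8.08 and 8.41 in MAZ1310 and 6.74, 7.47 and 7.94 in HF cultures, a log2 fold change of -0.54 (SE 0.38, adjusted p = 0.631). The groups overlapped, with an SD of 0.59 in MAZ1310 and 0.60 in HF. Between same-numbered cultures its differences were -0.53, -0.61 and -0.48. Probe mMR028290 had a log2 fold change of 0.057 (SE 0.19). The largest difference between 2 of these probes was 1.03 (SE 0.63, exact permutation p = 0.2, also 0.2 when adjusted over the 5 pairs).

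Mxd4, the Mad4 repressor, had 9.37, 10.47 and 10.21 in MAZ1310 and 9.60, 10.15 and 10.24 in HF cultures, with a log2 fold change of -0.019. It had the widest interval of the members (95% CI -0.75 to 0.71, SE 0.31, adjusted p = 0.992), and in both treatments the culture numbered 1 was the lowest. With 3 cultures per treatment, the interval leaves room for a rise or a fall of Mxd4 within these bounds. The bounds are not a limit of detection, as a call also required adjustment over all genes.

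Mnt, a widely expressed Max partner that opposes Myc, had 7.57, 7.63 and 7.65 in MAZ1310 and 7.70, 7.96 and 7.94 in HF cultures. The HF cultures were all above the MAZ1310 cultures, but on single arrays the groups overlapped, with 2 of 9 HF arrays above every MAZ1310 array. The log2 fold change of 0.25 (SE 0.13, 95% CI -0.059 to 0.56, adjusted p = 0.436) did not pass the test. Mlx had 10.30, 10.68 and 10.66 in MAZ1310 and 10.90, 10.64 and 10.69 in HF cultures. Its groups overlapped, and its log2 fold change was 0.20 (SE 0.16, 95% CI -0.17 to 0.57, adjusted p = 0.677).

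**Figure D3:**
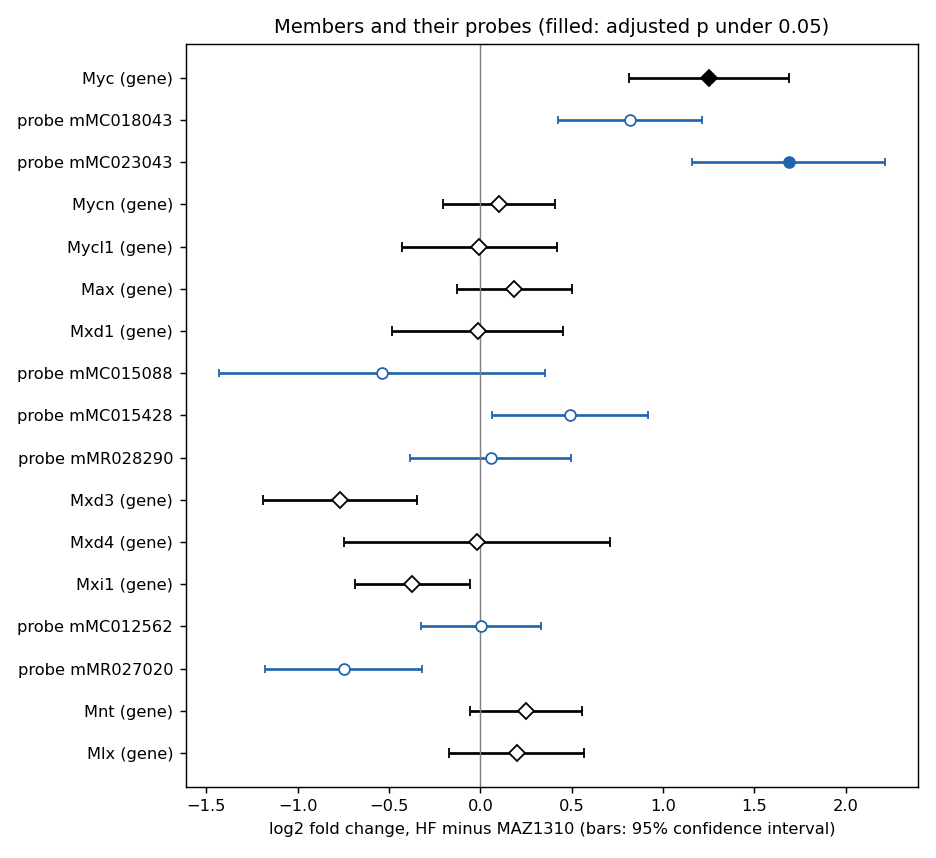
Log2 fold change, HF minus MAZ1310 (horizontal axis), of the 10 members (black diamonds) and, for members with several probes, of each probe (blue circles), with 95% confidence intervals from limma. Filled symbols mark an adjusted p under 0.05, which Myc (1.25) and its probe mMC023043 (1.69) reached. Among open symbols, the intervals of Mxd3, Mxi1 and Mxi1 probe mMR027020 lie below 0. Those of Myc probe mMC018043 and Mxd1 probe mMC015428 lie above 0.

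Of the other proteins that pair with Max or Mlx, 3 genes were measured and 0 passed the test, with a median log2 fold change of 0.045. Mlxip, the partner of Mlx known as MondoA, had 8.03 in MAZ1310 and 8.20 in HF on average, a log2 fold change of 0.17 (SE 0.31, adjusted p = 0.899). The cofactors of the network were not called either. Of 14 coactivators of Myc 0 passed, with a median of -0.16, and the largest difference was that of Gcn5l2 (Kat2a), a histone acetyltransferase, at -0.64 (SE 0.16, adjusted p = 0.0908). Of 9 corepressors of Mxd and Mnt 0 passed, with a median of -0.056, and Suds3, a subunit of the Sin3 complex, had the largest difference, -0.54 (SE 0.18, adjusted p = 0.176).

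Genes for the turnover of Myc protein and for the control of the Myc gene and mRNA gave 0 calls as well, of 16 and 14 measured. Their median log2 fold changes were 0.13 and 0.097. Fbxo28, a subunit of a ubiquitin ligase that acts on Myc, had 10.36 in MAZ1310 and 11.12 in HF on average, with groups apart and a log2 fold change of 0.76 (SE 0.16, adjusted p = 0.0535). It passed the threshold under 5 of the 19 alternative settings. Puf60, a splicing factor known to repress transcription of human MYC, had a log2 fold change of -0.51 (SE 0.18, adjusted p = 0.206).

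Genes reported to be activated by Myc had log2 fold changes on both sides of 0. Of 34 ribosome biogenesis genes, 2 passed, both higher in HF, beside 1.45% of all genes. The list median was 0.27, and 24 of the 34 were above 0. The HF cultures lay wholly above the MAZ1310 cultures for 9 of the 34 and wholly below for 3, beside 11.2% and 9.85% of all genes. The 2 called were Wdr43, a factor of small-subunit processing (0.88, SE 0.15, adjusted p = 0.0319), and Nol5, the older symbol of the box C/D snoRNP core protein Nop58 (0.83, SE 0.15, adjusted p = 0.0419). Wdr12, a partner of Pes1 in large-subunit maturation, had 0.95 (SE 0.20) and an adjusted p of 0.0545. Without 1 culture, Wdr43 passed only when that culture was MAZ1310 1, with adjusted p of 0.108 and 0.112 without MAZ1310 2 and 3 and of 0.0973, 0.117 and 0.0557 without HF 1, 2 and 3. Nol5 passed in none of these cases (0.0880, 0.139 and 0.0843 without MAZ1310 1, 2 and 3, and 0.116, 0.0977 and 0.118 without HF 1, 2 and 3). Wdr43 also lost its call with the brightest probe (adjusted p = 0.0888), and Nol5 with the median over technical arrays (0.0632) and the trend option of eBayes (0.0611).

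Of 24 genes of metabolism and growth, 1 passed, beside 3.02% of all genes, with a list median of 0.11. This was Hk2, a hexokinase that commits glucose to glycolysis, with 12.09 in MAZ1310 and 13.16 in HF on average, a log2 fold change of 1.07 (SE 0.19, adjusted p = 0.0351). Its call did not hold with any 1 culture left out (adjusted p of 0.0638, 0.0904 and 0.107 without MAZ1310 1, 2 and 3, and 0.102, 0.0807 and 0.0950 without HF 1, 2 and 3), nor with the median over technical arrays (0.0769). Slc29a2, a nucleoside transporter, had 0.89 (SE 0.21, adjusted p = 0.0735). In this list the groups were apart upward for 9 of 24 genes and downward for 4, beside 11.2% and 9.85% of all genes.

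Of 12 cell cycle genes, 1 passed, beside 3.02% of all genes. It was lower in HF, as were 1.57% of all genes by the same test. Ccne1, the cyclin E1 of entry into S phase, had 8.57 in MAZ1310 and 7.37 in HF on average, a log2 fold change of -1.21 (SE 0.22, adjusted p = 0.0381). Ccnd2, cyclin D2, had 1.07 (SE 0.30) and an adjusted p of 0.116, and the list median was -0.040. The groups were apart upward for 1 of the 12 genes and downward for 3, beside 11.2% and 9.85% of all genes. Left out 1 culture at a time, Ccne1 kept its call only without HF 3, with adjusted p of 0.0743, 0.0904 and 0.116 without MAZ1310 1, 2 and 3 and of 0.110 and 0.131 without HF 1 and 2.

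Of 15 genes that Myc is reported to repress, 2 passed, both higher in HF, beside 1.45% of all genes. They were Ndrg1, a stress-induced gene of differentiation, and Gadd45a, a growth arrest gene induced by DNA damage and amino acid shortage. Both had been picked by the study from these arrays, and they kept their calls under all 19 alternatives, with log2 fold changes between 3.39 and 3.61 and between 2.35 and 2.82. The list median was 0.098. For 5 of the 15 genes the groups were apart upward and for 1 downward, beside 11.2% and 9.85% of all genes. Thbs1, a matrix glycoprotein, had -0.93 (SE 0.21) and did not pass (adjusted p = 0.0690).

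Of 10 measured targets of Mlx with MondoA or ChREBP, 3 passed, all higher in HF, beside 1.45% of all genes. The list median was -0.26 and 4 of 10 values were above 0. Groups were apart upward for 3 of the 10 genes and downward for 2, beside 11.2% and 9.85% of all genes. The 3 called were Txnip, an arrestin-like inhibitor of glucose uptake that the study had picked from these arrays, its relative Arrdc4 and the zinc finger factor Klf10. Klf10 had 11.91 in MAZ1310 and 13.60 in HF on average, a log2 fold change of 1.69 (SE 0.27, adjusted p = 0.0279). Arrdc4 had 9.43 and 10.29, a log2 fold change of 0.86 (SE 0.15, adjusted p = 0.0367). Elovl6, a fatty acid elongase, had -0.88 (SE 0.30, adjusted p = 0.196). Txnip kept its call under all alternatives. Klf10 lost it without MAZ1310 2 (adjusted p = 0.0979), MAZ1310 3 (0.0573), HF 1 (0.0719), HF 2 (0.0876) or HF 3 (0.0646), and Arrdc4 lost it without MAZ1310 1, 2 or 3 (0.0749, 0.106 and 0.119) and without HF 1, 2 or 3 (0.0766, 0.106 and 0.0823). Arrdc4 also lost its call with the brightest probe (adjusted p = 0.169), the median over technical arrays (0.0522) and the trend option of eBayes (0.0581). Without HF 2 and without MAZ1310 3 the list median was -0.092 and -0.12.

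**Figure D4:**
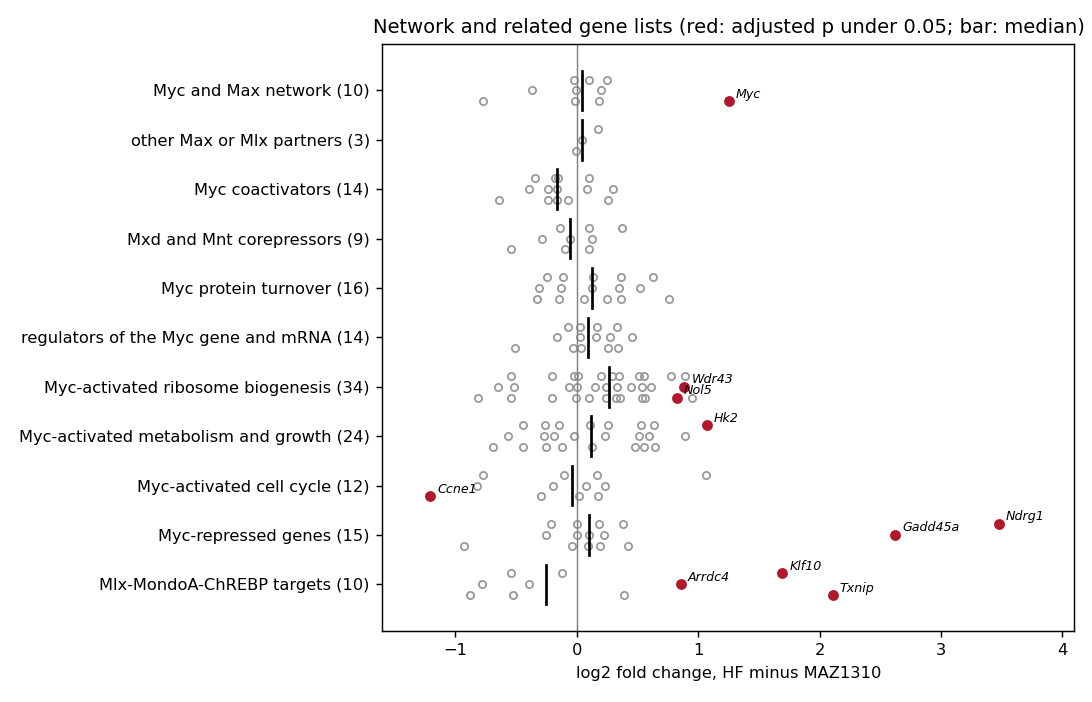
Log2 fold change, HF minus MAZ1310 (horizontal axis), of each measured gene (circles) in the network and in 10 related lists (vertical axis, number measured in parentheses), with a black bar at the list median. Red, named circles passed the test, and beside Myc these are 8 genes higher and 1 gene (Ccne1) lower in HF.

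Over these 10 lists, 8 of 151 genes passed higher in HF and 1 lower, beside 1.45% and 1.57% of all genes. Among the 8 were Ndrg1, Gadd45a and Txnip, which the study had picked from these same arrays. As the lists were also chosen with earlier results known, the pooled count is a description only. With 1 culture left out, 3 to 6 of the 151 passed. The 5 genes whose profile over the 6 cultures, each centered on its own mean, was nearest to that of Myc were 4930503L19Rik, Akap12, Xpot, Diap3 and 2610305D13Rik. Their root mean square distances from the Myc profile were 0.060, 0.091, 0.093, 0.11 and 0.11 log2 units, and their Pearson correlations with it over the 6 cultures were 0.99 or above. Akap12 is a scaffold of protein kinase A, Xpot exports tRNA from the nucleus, and Diap3 is a formin that nucleates actin filaments. Their log2 fold changes ran from 1.13 for Diap3 to 1.39 for 2610305D13Rik, and as these genes were chosen for a profile that holds the treatment difference, the values are a description only.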

How the data were processed

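Total RNA of 6 NMuMG cultures, 3 per treatment, was measured on 18 1-color arrays (3 technical arrays per culture). The deposited values are linear intensities, which the authors filtered for probes with negative or missing values and quantile-normalized across arrays. The scanner, background correction and detection calls are not given in the sources used here, and all probes were kept. Of 21973 probes, 21020 had 1 gene symbol in the platform annotation, 0 several and 953 none. Here the intensities were log2-transformed, the median over probes was taken per gene on each array, and technical arrays were averaged per culture (median technical SD 0.26, median SD between cultures 0.23). The labels call the cultures biological replicates but do not say how independently they were grown. The limma p-values set a difference of means against the spread between these cultures, which limma moderates over all genes. HF and MAZ1310 were compared by limma 3.58.1 in R 4.3.3 (two-sided, lmFit with the treatment as its single term, then eBayes) over all 16675 genes, or all 21973 probes, adjusted by Benjamini-Hochberg, and an adjusted p under 0.05 counted as a call. Differences between members or between probes were tested by exact two-sided permutation of the cultures.

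The members and gene lists were chosen with earlier results of these data known. The genes named are all members with every probe; in each list those called (the 4 with the smallest p where more) and the one with the largest change among those not called; the epithelial markers Krt8, Krt18 and Tacstd1, named after their values were seen; and the 5 genes nearest to each called member by root mean square distance. The code was tested on simulated data. Alternatives covered array scaling, a filter on dim genes, how probes and technical arrays were summarized, the culture as a random block, the replicate number as a block, options of eBayes, the Storey q-value and each culture left out.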

Additional observations from a re-analysis of the deposited data

How the results depend on the processing

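The rise of Myc kept its direction under all 19 alternatives (log2 fold change 1.13 to 1.69) and its call under 15. The 4 that ended it left out 1 culture each, where the range was 1.13 to 1.41. Leaving out 1 culture gave 48 to 339 genes called in place of 504, 0 to 1 members, 0 to 1 member probes and 3 to 6 genes of the lists. With the median over technical arrays 322 genes were called. With the culture as a random block these counts were 1128 genes, 2 members (Myc and Mxd3), 4 member probes and 25 list genes in place of 9. With the 18 arrays taken as independent, which counts technical arrays as cultures, they were 2474, 3 (Mxi1 as well), 4 and 40. The random block takes 1 correlation between technical arrays for all genes, which may not hold for each of them. Storey q-values gave 2 member probes. With the brightest probe of each gene the median difference between Myc and the other members was 1.63.

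With the replicate number as a block 1792 genes, 2 members (Myc and Mxd3, adjusted p = 0.0284), 4 member probes and 30 list genes were called. Mxd1 probe mMC015088 was among them (adjusted p = 0.0383, beside 0.631 without the block). Deviations of same-numbered cultures correlated at 0.67, 0.079 and 0.69. Each HF culture correlated best with the MAZ1310 culture of its own number, whereas MAZ1310 2 correlated best with HF 3 (0.27). The labels do not say whether a number marks a pair, so the main fit has no block. Whether the cultures were paired is not known.

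Members near 0 changed sign. Mxd1 had 0.0033 with the mean over probes, 0.057 with the brightest probe, 0.0085 with technical arrays averaged first and 0.067 with their median, which gave 0.015 for Mycl1 and 0.089 for Mxd4. Cyclic loess gave -0.020 for Mxi1 probe mMC012562. Without 1 culture, Mxd1 ran from -0.22 to 0.11, Mycl1 from -0.16 to 0.089, Mxd4 from -0.34 to 0.21, Mxi1 probe mMC012562 from -0.090 to 0.064, Mxd1 probe mMR028290 from -0.12 to 0.20 and Mlxip from -0.043 to 0.44. None of these values passed the test, and the causes were not tested. Where a culture was left out, its treatment had 2 cultures. The arrays give no detection call, so whether dim probes such as those of Mycn, of Mxd3 in HF and Mxi1 mMC012562 rose above background is not known. The same holds for other members. In MAZ1310, 20 genes taken as restricted to other tissues had mean log2 intensities of 6.12 to 8.91 (median 6.51). Mycl1 (7.02), Mxd3 (7.29), Mnt (7.62), Mxd1 (7.68) and Mxi1 (8.19) lay within that range in MAZ1310, and Mycn (5.68) lay below it.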
